A study of Drosophila melanogaster with 12 samples.

Results

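Long noncoding RNAs (lncRNAs) were examined in whole female Drosophila melanogaster by RNA-Seq and by Ribo-Seq, which sequences the RNA fragments left after nuclease digestion of ribosome-bound RNA (footprints). The members were all genes of the count table whose FlyBase symbol starts with lncRNA:, with the counts of their transcripts summed per gene. This gave 930 genes with 1080 transcripts, of 14405 genes and unmatched features in the table. The Polr3D EY/+ flies were heterozygous for dC53EY22749, a P-element insertion in Polr3D, which encodes a subunit of RNA polymerase III, and the wild-type flies were White Dahomey. Both genotypes came from the same outbred Dahomey background kept with a white-eye mutation, and each sample pooled whole flies by weight. The labels give no age. Ribo-Seq had 3 Polr3D EY/+ and 3 wild-type libraries, and RNA-Seq had 3 Polr3D EY/+ and 2 wild-type libraries in the table. Footprint counts of wild-type replicate 3 are given beside the others, but that sample stood outside the DESeq2 and edgeR fits. Nothing in the labels says that replicates came from separate cultures, so p-values measure only the spread between these samples, which may be technical.

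LncRNAs are transcripts longer than small RNAs that carry no annotated protein. Some act as RNA in the nucleus, as roX1 and roX2 do in the male dosage compensation complex, and others serve as precursors from which miRNAs or piRNAs are cut. An RNA held in the nucleus is not reached by cytoplasmic ribosomes, whereas a cytoplasmic lncRNA can be scanned by ribosomes and may carry short reading frames. Ribo-Seq fragments on a lncRNA can also come from structured RNA or from other RNA-protein complexes, and the count table does not hold fragment lengths or positions that would separate them.

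The symbols gathered several kinds of locus. By the annotation, 613 members lay between genes, 144 lay in an intron of a gene on the opposite strand and 51 in an intron on the same strand. The exons of 70 members overlapped an exon of a protein-coding gene on the opposite strand, and those of 52 members overlapped coding-gene exons on the same strand. The median exonic length was 705.5 bases, with a range of 201 to 21710 bases, and 561 members had a single exon. Chromosome arms 2L and 3L held 209 members each, 3R held 201, 2R held 157, X held 142 and chromosome 4 held 12.

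RNA-Seq libraries held between 24496792 and 28984254 counts, of which protein-coding genes took 99.0% to 99.2%. Ribo-Seq libraries held between 47136883 and 87054266 counts, but ribosomal RNA took most of them and protein-coding genes held 1127599 to 3192166 counts per library. All levels below are therefore counts per 1000000 protein-coding counts of the same library (CPM). Polr3D RNA was 30.2 ± 0.528 CPM in Polr3D EY/+ flies and 57.7 ± 8.42 CPM in wild-type flies (SD, n = 3 and 2; two-sided exact permutation p = 0.2, the smallest that this design allows; DESeq2 log2 change -0.91, SE 0.24, adjusted p = 0.0304). Polr3D footprints were 11.9 ± 3.70 CPM in Polr3D EY/+ and 27.2 ± 2.39 CPM in wild-type flies (SD, n = 3 each; two-sided exact permutation p = 0.1, again the smallest possible). The DESeq2 fit, which left out wild-type replicate 3, gave a log2 footprint change of -1.19 (SE 0.34) and an adjusted p of 0.131. Some libraries stood apart in genes of the testis and accessory gland. The 19 of 20 such markers in the table summed to 28.4 CPM in RNA-Seq of Polr3D EY/+ replicate 1, with 18 above 0, and to 0.144 CPM or less in the other 4 RNA-Seq libraries. In Ribo-Seq they summed to 0.878, 9.40 and 55.5 CPM in Polr3D EY/+ replicates 1 to 3, and to 0.669, 129 and 0 CPM in wild-type replicates 1 to 3. Ovary germ line markers summed to 2087 to 2420 CPM in all 6 Ribo-Seq libraries and to 3267 to 3928 CPM in all 5 RNA-Seq libraries.

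RNA was detected for most lncRNA genes, but at low levels. At least 1 RNA count was found for 798 of the 930 members (85.8%), counts in all 5 RNA-Seq libraries for 279 (30%), a mean of at least 10 counts for 165 and a mean of at least 50 counts for 70. Among 12759 protein-coding genes, 10558 (82.7%) had counts in all 5 libraries and 8762 had a mean of at least 50. For 483 members, no library of either assay held more than 3 counts. Together the members summed to 1235, 1518 and 1299 CPM in RNA-Seq of Polr3D EY/+ replicates 1 to 3, and to 1447 and 1265 CPM in wild-type replicates 1 and 2. The ranges of the genotypes overlapped, and the means were 1351 ± 149 CPM in Polr3D EY/+ and 1356 ± 128 CPM in wild-type flies (SD, n = 3 and 2).

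A few genes carried most of the lncRNA signal. The 10 most abundant members held 57.6% to 60.3% of all lncRNA RNA counts in each library. The highest was CR42862 (FBgn0262109; chromosome 3L, 224106 to 230964, plus strand), which had 232, 324 and 284 CPM in Polr3D EY/+ flies, against 281 and 254 CPM in wild-type flies. By itself it made up 18.8% to 21.9% of the lncRNA RNA counts, and its level differed by less than the spread between replicates. Only 4.48% of its exonic bases overlapped the same-strand gene CG33229, and none of its coding sequence.

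**Figure D1:**
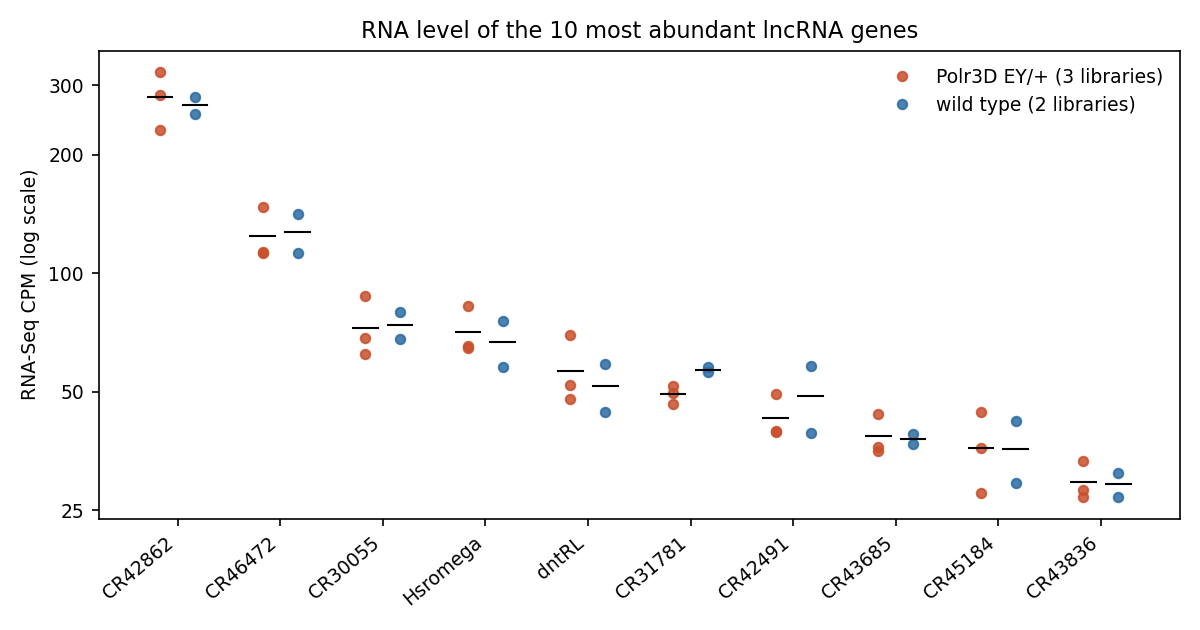
RNA-Seq CPM (log scale) of the 10 most abundant lncRNA genes, with each library as a point (Polr3D EY/+ left, wild type right) and the group mean as a bar. CR42862 sits between 232 and 324 CPM in all 5 libraries. CR31781 is the gene of the 10 whose genotypes do not overlap, as in 6.86% (lower) and 5.57% (higher) of all genes averaging 10 or more RNA counts.

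CR46472 came next (FBgn0287603; X, 21520175 to 21527105, plus strand), with 113, 148 and 113 CPM in Polr3D EY/+ and 141 and 113 CPM in wild-type flies. All of its exonic bases (100%) lay in annotated transposable elements, so its counts depend on how fragments were divided between repeats. CR30055 (FBgn0050055; 2R, 12589239 to 12591395, plus strand), within an intron of Sin3A on the opposite strand, averaged 72.7 ± 13.1 CPM in Polr3D EY/+ and 73.8 ± 8.25 CPM in wild-type flies (SD, n = 3 and 2). Hsromega (FBgn0001234; 3R, 21296127 to 21317836, plus strand), the heat shock RNA omega gene whose long transcripts organise nuclear omega speckles, had 64.6, 82.7 and 65.4 CPM in Polr3D EY/+ and 75.9 and 58.0 CPM in wild-type flies. These 3 genes overlapped between the genotypes as CR42862 did.

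The order of abundance changed when exonic length was taken into account. Per kilobase of exon, CR42491 was at 61.3, CR42862 at 49.9, dntRL at 39.7, CR30055 at 35.6, CR43685 at 30.8, CR31781 at 19.8, CR46472 at 18.1 and Hsromega at 3.17 RNA CPM per kb (mean of the genotype means). Hsromega spans the longest exonic sequence of the members, 21710 bases, and was behind 3 genes by CPM but lowest of the 10 by CPM per kb. CR31781 (FBgn0051781; 2L, 16869346 to 16878300, plus strand) had 46.6, 49.7 and 51.8 CPM in Polr3D EY/+ flies, against 57.8 and 56.0 CPM in wild-type flies. It was the only gene of the 10 in which all Polr3D EY/+ libraries lay on one side of both wild-type libraries, and its DESeq2 log2 RNA change was -0.24 (SE 0.28, adjusted p = 1.0). Of all 10322 genes with a mean of at least 10 RNA counts, 6.86% were likewise lower without overlap and 5.57% higher. The other genes of the 10, dntRL, CR42491, CR43685, CR45184 and CR43836, had group means between 29.1 and 56.5 CPM.

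Members known by name from earlier fly genetics were mostly rare in whole females. roX1 (FBgn0019661; X, 3857230 to 3862697, minus strand), which marks the X chromosome for dosage compensation in males, had 108, 108 and 89 RNA counts in Polr3D EY/+ and 126 and 96 in wild-type flies. Its partner roX2 had 1 to 4 counts per library. The roX1 counts of the genotypes overlapped, also in Polr3D EY/+ replicate 1, in which the male markers were high. CRG, a regulator of the neighbouring CASK gene that affects locomotion, had 41 to 84 RNA counts per library. All of its exonic bases lay within same-strand CASK exons, although none in CASK coding sequence. sphinx, which affects male courtship, had 8 to 16 RNA counts and let7C, the precursor of let-7, miR-100 and miR-125, had 9 to 25. iab8 and bxd of the bithorax complex, cherub of neural stem cells, yar, which affects sleep, and acal, which acts in dorsal closure, had 0 to 13 RNA counts in any library. No statement on genotype is possible for these genes at this depth.

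Footprints were far fewer than RNA counts. At least 1 footprint was found for 387 members (41.6%) over the 6 Ribo-Seq libraries, footprints in all 6 libraries for 28 (3.01%), and a mean of at least 10 for 14. Of 12759 protein-coding genes, 8786 (68.9%) had footprints in all 6 libraries. A total of 543 members had RNA counts but 0 footprints in 6 libraries, and 132 had footprints but 0 RNA counts. Footprint levels summed over the members were 706, 376 and 1748 CPM in Polr3D EY/+ replicates 1 to 3, and 305, 717 and 384 CPM in wild-type replicates 1 to 3. The genotypes overlapped and the libraries of 1 genotype differed by up to several fold, mostly through CR44537, CR44684 and CR44602. Like CR44430, these genes had footprints with almost no RNA. Without these 4 genes, the sums were 326, 268 and 483 CPM in Polr3D EY/+ and 250, 342 and 283 CPM in wild-type libraries.

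To set footprints against RNA, the share of each gene in the protein-coding footprints was divided by its share in the protein-coding RNA counts. The resulting footprints per RNA is 1 for the protein-coding counts as a whole. Values by replicate divide the Ribo-Seq library by the RNA-Seq library of the same number, although these numbers did not pair the assays. Their spread is thus between libraries, and the pooled values do not depend on the numbering. Pooled over the 5 replicates with both assays, the 70 members with a mean of at least 50 RNA counts had a median of 0.119 footprints per RNA, and the 8762 protein-coding genes past the same minimum had a median of 0.809. Of the 70 members, 63 lay below the protein-coding median, 52 below the protein-coding 10th percentile of 0.259 and 26 below the 1st percentile of 0.0580. Summed over the 70 members, footprints per RNA was 0.153. The 50 genes named as antisense RNAs past the same minimum had a median of 0.0212, with all 50 below the protein-coding median.

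**Figure D2:**
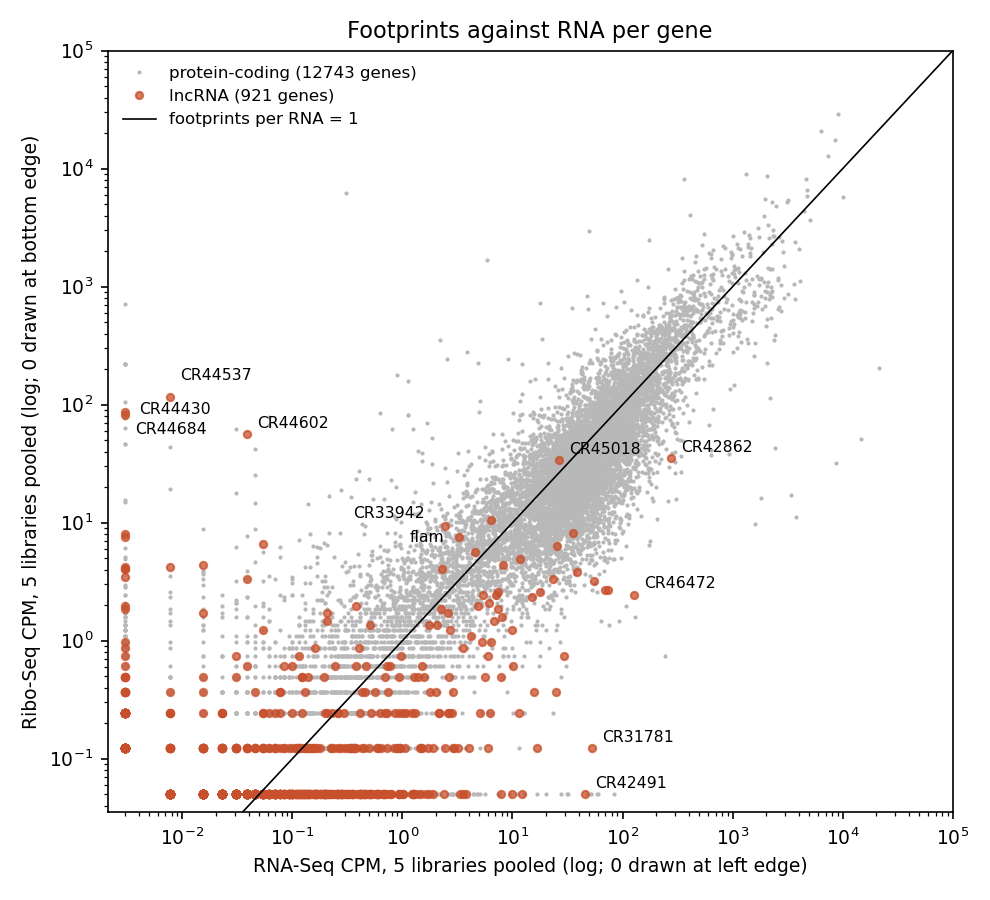
Ribo-Seq CPM against RNA-Seq CPM per gene, both pooled over 5 libraries on log scales, for 12743 protein-coding genes (grey) and 921 lncRNA genes (orange), with the line where footprints per RNA is 1. Of the 70 lncRNA genes with at least 50 RNA counts on average, 6 lie above the line, and CR44537, CR44684, CR44430 and CR44602 lie at the far left with footprints but almost no RNA.

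The difference was present in every replicate. On the log2 scale with a pseudocount of 0.5, the median of the 70 members was -2.63, -3.34 and -2.37 in Polr3D EY/+ replicates 1 to 3, and -3.16 and -2.44 in wild-type replicates 1 and 2. The protein-coding medians were -0.29, -0.31 and -0.30 in Polr3D EY/+ and -0.28 and -0.27 in wild-type replicates. The gap between the lncRNA and protein-coding medians was -2.48 ± 0.50 in Polr3D EY/+ and -2.53 ± 0.51 in wild-type flies (SD, n = 3 and 2), so the genotypes differed by less than the spread between replicates. Because many of these members had 0 to 3 footprints per library, the size of the per-replicate gap depends on the pseudocount and on the RNA minimum. With no minimum, when most members hold few or no counts and the pseudocount sets their values, its direction turned, to 2.81 in Polr3D EY/+ and 2.97 in wild-type flies. The pooled values, which use no pseudocount, were also lower with more RNA. With 50 to 200 RNA counts the median was 0.167 for 42 members and 1.13 for 1041 protein-coding genes. With 200 to 1000 it was 0.0924 for 20 members and 0.798 for 3031 protein-coding genes, and with at least 1000 it was 0.0376 for 8 members and 0.767 for 4690 protein-coding genes.

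Footprints per RNA was low in each class of position. The median of footprints per RNA was 0.0989 for the 31 members between genes, 0.0739 for 10 in an intron on the opposite strand and 0.135 for 6 in an intron on the same strand. It was 0.152 for 7 members with exon overlap on the opposite strand and 0.104 for 16 whose exons overlapped coding-gene exons on the same strand, where fragments can be assigned to either gene. Each of these medians lay below the protein-coding 10th percentile. The differences between the position classes were not tested.

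The most abundant members had the clearest deficits, since their RNA would have given many footprints at a protein-coding ratio. CR42491 (FBgn0259993; X, 762615 to 763810, minus strand) had 964, 1416 and 984 RNA counts in Polr3D EY/+ and 1619 and 963 in wild-type flies, and 0 footprints in all 6 libraries. A count of 0 over the 5 pooled libraries allows up to 3 counts, or 0.00806 footprints per RNA, which is at least 100.3-fold lower than the protein-coding median. About 50.5% of its exonic bases overlapped RpL22, which encodes a ribosomal protein and lies on the same strand, and 264 of them fell in RpL22 coding sequence. Footprints that match both genes may have been assigned to RpL22, and this was not tested.

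CR31781, with 1133 to 1609 RNA counts per library, had 1 footprint in wild-type replicate 2 and 0 in the other 5 Ribo-Seq libraries, or 0.00234 footprints per RNA. It overlapped no coding-gene exon. CR46472 had 1, 5 and 3 footprints in Polr3D EY/+ and 8, 3 and 14 in wild-type libraries, or 0.0194 footprints per RNA (95% Poisson interval up to 0.0300, counting error only). Hsromega had 1, 10 and 3 footprints in Polr3D EY/+ and 2, 6 and 6 in wild-type libraries, or 0.0386 (0.0242 to 0.0585). CR30055, at 0.0366, and dntRL, at 0.0578, lay in the same range. By replicate, footprints per RNA of CR30055 was 0.0128, 0.0251 and 0.0269 in Polr3D EY/+ and 0.0588 and 0.0653 in wild-type flies (DESeq2 log2 change -1.38, SE 0.73, adjusted p = 1.0). That of CR46472 was 0.00778, 0.0106 and 0.0223 in Polr3D EY/+ and 0.0379 and 0.0236 in wild-type flies (log2 change -1.32, SE 0.76). dntRL went the other way, with Polr3D EY/+ higher (log2 change 0.91, SE 0.86). None of the 3 differences passed the DESeq2 test, and each rests on 1 to 11 footprints per library. The share of all genes whose genotypes separate in footprints per RNA was not computed, so these separations are description only. The pooled values of these genes lay at or below the 1st percentile of protein-coding genes, and every replicate of each lay below the 10th. At the protein-coding median, their RNA would have given 60.2 to 167 footprints per library.

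CR42862 was an exception among the abundant members in the number of its footprints. It had 49, 137 and 36 footprints in Polr3D EY/+ and 15, 51 and 66 in wild-type libraries, the most of the 70 members. Its footprints per RNA was nevertheless 0.128 (0.113 to 0.143), and 2.86% of protein-coding genes lay lower. By replicate the value was 0.186, 0.132 and 0.107 in Polr3D EY/+ and 0.0357 and 0.178 in wild-type flies. Wild-type replicate 1 alone was low, and wild-type replicate 2 lay within the range of the mutants.

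At the other end, 7 of the 70 members lay above the protein-coding median and 6 had more than 1 footprint per RNA. CR33942 (FBgn0062961; 2R, 18711391 to 18711951, plus strand) was the highest at 3.87 (95% Poisson interval 3.05 to 4.84, counting error only), above 98.1% of protein-coding genes. It had 39, 116 and 32 RNA counts with 12, 29 and 16 footprints in Polr3D EY/+ flies, and 84 and 43 RNA counts with 13 and 6 footprints in wild-type replicates 1 and 2. Wild-type replicate 3 held 13 footprints. The gene lies between genes and has 503 exonic bases, and its footprints per RNA was above 1 in each of the 5 replicates.

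flam (FBgn0267704; X, 21631891 to 21790731, plus strand) is the flamenco locus, whose transcript is the precursor of piRNAs that silence gypsy-family transposons in ovarian follicle cells. It had 80, 103 and 89 RNA counts with 16, 20 and 10 Ribo-Seq counts in Polr3D EY/+ flies, and 78 and 79 RNA counts with 7 and 8 Ribo-Seq counts in wild-type replicates 1 and 2, with 15 Ribo-Seq counts in wild-type replicate 3. Its footprints per RNA was 2.27 (1.74 to 2.92), and the value was above 1 in each of the 5 replicates. Of its 17427 exonic bases, 74.7% lay in annotated transposable elements. piRNAs are similar in length to footprints, and the table does not tell them apart from ribosome-protected fragments.

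CR45018 (FBgn0266376; X, 13304005 to 13308004, plus strand) had similar values in all replicates. It had 649, 753 and 632 RNA counts with 38, 102 and 41 footprints in Polr3D EY/+ flies, and 679 and 709 RNA counts with 49 and 45 footprints in wild-type replicates 1 and 2, with 34 footprints in wild-type replicate 3. Its footprints per RNA was 1.25, 1.22 and 1.35 in Polr3D EY/+ and 1.34 and 1.38 in wild-type replicates. Of its exonic bases, 35.8% overlapped IP3K2, an inositol trisphosphate kinase gene on the same strand, and 1068 of them were IP3K2 coding sequence. Fragments shared with IP3K2 could be assigned to either gene, and the part this played was not tested.

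CR43250 (FBgn0262895; 3L, 17033119 to 17033676, minus strand) overlapped no coding-gene exon and had 1.06, 1.83 and 1.45 footprints per RNA in Polr3D EY/+ and 1.47 and 1.95 in wild-type replicates, on 7 to 41 footprints per library. CR44138 reached 1.79 pooled, but had 0 footprints in wild-type replicate 1 and 11 in wild-type replicate 2. CR44289 reached 1.24, with 8, 19 and 10 footprints in Polr3D EY/+ and 7, 2 and 12 in wild-type libraries. The last of the 7, the lncRNA gene at osk, the oskar locus that specifies germ cells, rested on 1 library: its 15 footprints were all in Polr3D EY/+ replicate 1. Its exons overlap coding-gene exons on the same strand, so fragments could be assigned to either gene, and this was not tested. CR44966 was the eighth in order at 0.661, with 11 footprints, 9 of them in Polr3D EY/+ replicate 2.

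**Figure D3:**
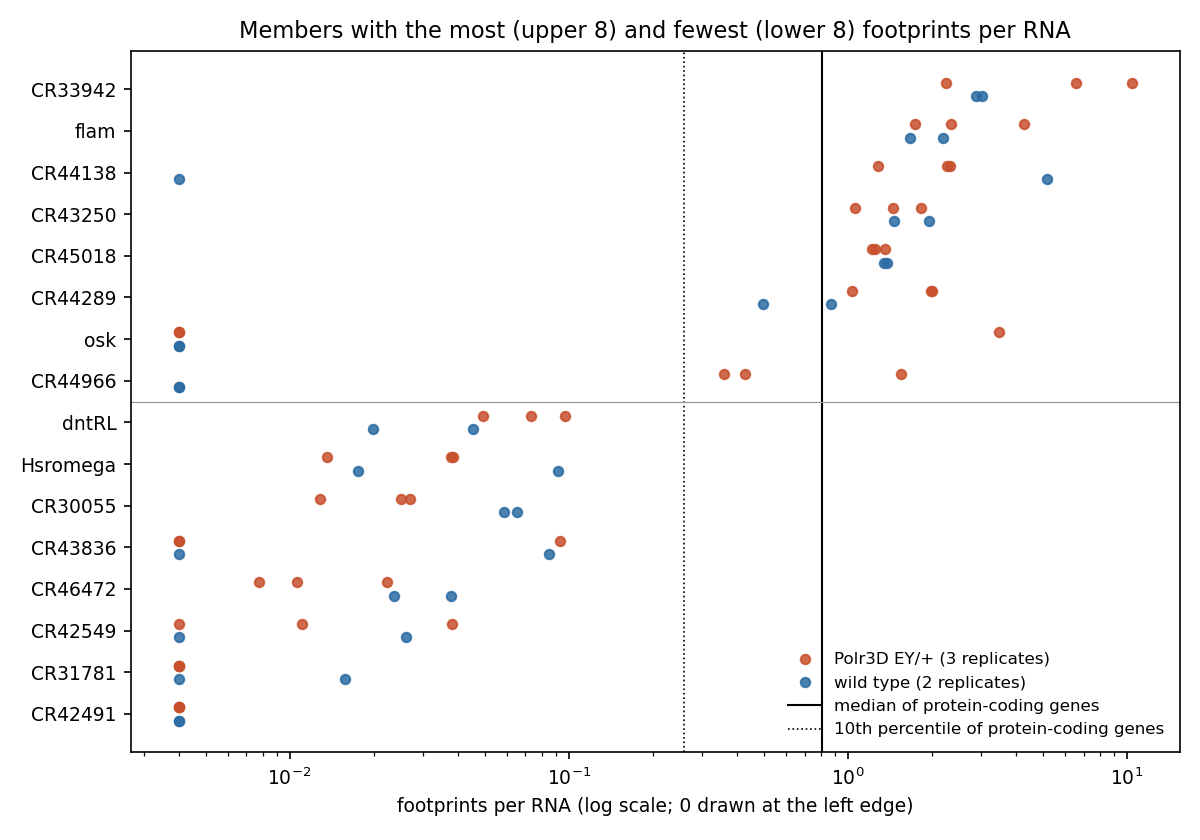
Footprints per RNA (log scale) in each replicate for the 8 members with the most and the 8 with the fewest, with the median and 10th percentile of protein-coding genes as vertical lines (Polr3D EY/+ points above wild-type points, values of 0 at the left edge). CR33942, flam, CR43250 and CR45018 exceed 1 in all 5 replicates, and the lower 8 stay below the 10th percentile in all 5.

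A group of 28 members held an annotated miRNA gene within their exons and so are candidate miRNA precursors. Precursor transcripts are cut by Drosha in the nucleus, and the mature miRNAs of about footprint length are loaded into Argonaute proteins in the cytoplasm. Of the 28, 13 had a mean of at least 10 RNA counts, and 5 of these 13 had 0 footprints in all 6 libraries. The 13 together gave 14853 RNA counts and 50 footprints in the 5 replicates with both assays, or 0.0538 footprints per RNA. Hsromega alone gave 9099 of these RNA counts and 22 of the footprints, so it weighs most in this value. CR31044 (FBgn0051044; 3R, 29214562 to 29219667, plus strand), which holds mir-279 and mir-996, had 299, 416 and 299 RNA counts in Polr3D EY/+ and 330 and 233 in wild-type flies, and 0 footprints in every library. Its RNA was 12.9 ± 1.34 CPM in Polr3D EY/+ and 10.7 ± 1.64 CPM in wild-type flies (SD, n = 3 and 2). The genotypes did not overlap, as in 5.57% of all genes averaging 10 or more RNA counts in that direction, and the DESeq2 log2 change of 0.32 (SE 0.53) did not pass the test (adjusted p = 1.0).

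In the same Ribo-Seq libraries, several miRNA genes were assigned counts where their host was assigned none. These miRNA genes lie in host exons on the same strand, so their fragments match both and could be assigned to either. The part this played in the counts of hosts and miRNA genes was not tested. CR42651, the host of mir-10, a miRNA of the Antennapedia complex, had 59 RNA counts in all and 0 footprints, while the mir-10 gene had 328 to 904 Ribo-Seq counts per library and 0 RNA counts. let7C had 2 footprints in all, and its miRNA genes in the table had 12 to 288 Ribo-Seq counts per library. CR45361, the host of the muscle miRNA mir-1, had 0 footprints and mir-1 had 14 to 34. Over all 28 hosts, the 18 of their 35 miRNA genes present in the table had 4206 Ribo-Seq counts, of which mir-10 had 3274 and the let7C miRNAs 650, and the hosts had 75, of which Hsromega, whose miRNA gene is outside the table, had 28. Of the 17 hosts with a miRNA gene in the table, 11 had fewer counts than their miRNA genes, 4 had the same number and 2 had more, CR43650 (10, against 5 for mir-8) and CR43334 (5, against 3 for mir-ban).

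The reverse case was also seen, members with footprints but almost no RNA. Over all genes, 108 had a mean of at least 10 footprints and a mean of under 1 RNA count. They were 69 of the 92 tRNA genes, 19 of the 12759 protein-coding genes, 15 other noncoding RNAs and 5 of the 930 lncRNA genes. The 5 lncRNA genes were CR44537, CR44684, CR44430, CR43604 and CR40469, and CR44602 had a mean of exactly 1 RNA count. tRNAs are short and highly structured, and their fragments enter footprint libraries as a known contaminant.

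CR44537 (FBgn0265730; 3L, 813300 to 814487, plus strand) had 68, 12 and 804 footprints in Polr3D EY/+ and 7, 58 and 15 in wild-type libraries, on 1 RNA count in 5 libraries. CR44684 (FBgn0265895; 3L, 20623851 to 20624491, minus strand) had 204, 14 and 236 footprints in Polr3D EY/+ and 20, 191 and 10 in wild-type libraries, on 0 RNA counts. CR44602 (FBgn0265813; 2L, 15807181 to 15810319, minus strand) had 32, 0 and 381 footprints in Polr3D EY/+ and 0, 45 and 0 in wild-type libraries. All 3 genes were high in the same libraries, Polr3D EY/+ replicates 1 and 3 and wild-type replicate 2, and low in the other 3, so the genotypes overlapped. Together the 3 genes made up 37.8%, 2.17% and 68.4% of lncRNA footprints in Polr3D EY/+ replicates 1 to 3, and 5.91%, 36.3% and 4.97% in wild-type replicates 1 to 3.

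Other features moved with these libraries. The precursor rRNA gene CR45846 took 0.188%, 14.8% and 0.639% of all counts in Polr3D EY/+ replicates 1 to 3 and 1.03%, 0.275% and 10.3% in wild-type replicates 1 to 3, and was thus lowest where the 3 lncRNA genes were high. The male markers were high in wild-type replicate 2 and Polr3D EY/+ replicate 3 but at 0.878 CPM in Polr3D EY/+ replicate 1, where 2 of the 3 lncRNA genes exceeded their level in wild-type replicate 2. The part of either in these counts was not tested. CR44430 (FBgn0265612; X, 15225513 to 15226256, plus strand) did not follow this order. It had 129, 316 and 83 footprints in Polr3D EY/+ and 56, 129 and 107 in wild-type libraries, or 113, 99.0 and 69.8 CPM against 37.4, 114 and 81.7 CPM. CR43604, of 201 bases, had 6 to 16 footprints in every library, and CR40469 had 4, 22 and 31 in Polr3D EY/+ and 8, 0 and 19 in wild-type libraries.

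**Figure D4:**
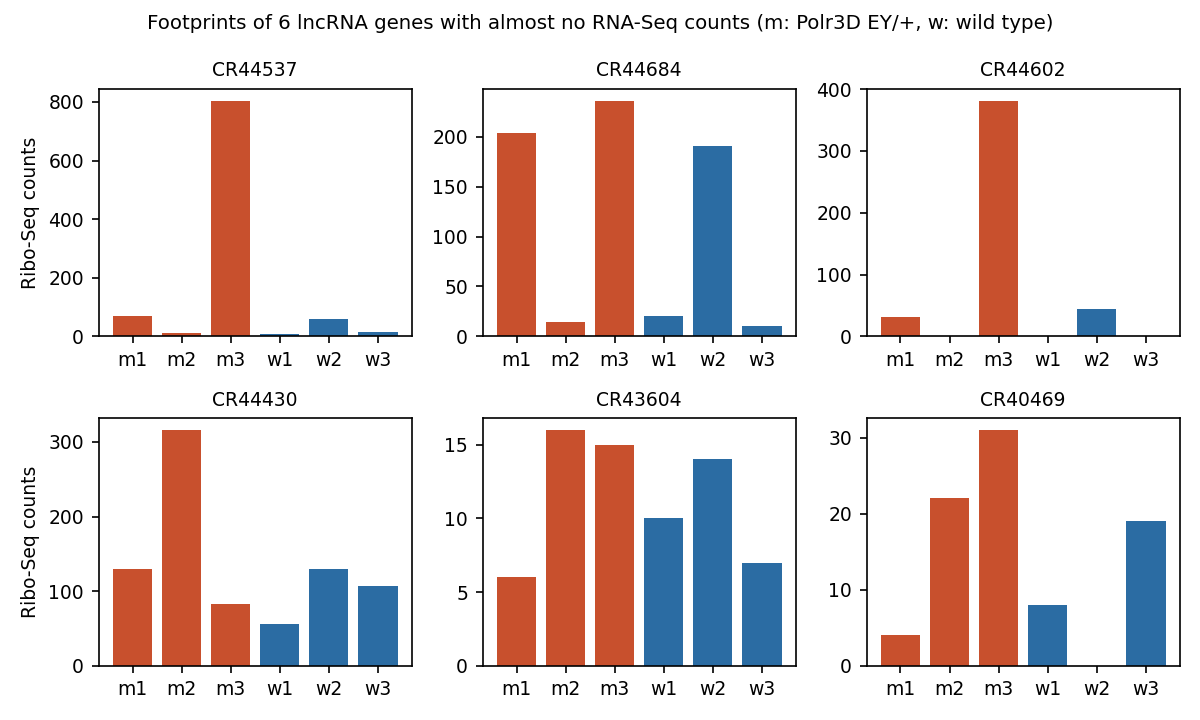
Ribo-Seq counts per library of 6 lncRNA genes with almost no RNA-Seq counts (bars from 0; m1 to m3 are Polr3D EY/+ and w1 to w3 wild-type replicates, with a separate axis for each gene). CR44537 reaches 804 counts in Polr3D EY/+ replicate 3, and CR44684 is high in m1, m3 and w2 only.

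The last comparison asked whether any lncRNA differed between the genotypes in RNA, in footprints or in footprints per RNA. The test used the DESeq2 model formula of the study, fitted to all genes, with a call at a false discovery rate of 10%. Counts summed per gene and size factors from protein-coding totals were choices made here. In RNA, 0.991% of all 13820 genes tested were called, and 2 of the 763 members tested were called, CR43239 and CR9284, both higher in Polr3D EY/+ flies, a direction in which 0.868% of all genes were called. CR43239 had 18, 0 and 0 RNA counts in Polr3D EY/+ and 0 and 0 in wild-type flies (adjusted p = 0.0198 by DESeq2), and CR9284 had 9, 0 and 0 in Polr3D EY/+ and 0 and 0 in wild-type flies (adjusted p = 0.0266). Each call thus rested on Polr3D EY/+ replicate 1, the RNA-Seq library in which 18 of the 19 male markers were above 0. The part of male RNA in these calls was not tested. edgeR called 0 members, but its filter on low counts removed CR43239 and CR9284 before the test. In DESeq2, 4 members had an unadjusted p under 0.05, as did 1.59% of all genes.

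In footprints, 0.348% of 14368 genes were called and so were 2 of 921 members, both higher in Polr3D EY/+ flies, where 0.285% of all genes were called in that direction. At an unadjusted p under 0.05 there were 4 members and 2.96% of all genes. CR44496 had 0, 0 and 3 footprints in Polr3D EY/+ and CR44711 had 0, 5 and 0, with 0 in all wild-type libraries. At 3 and 5 counts in 1 library each, these calls say nothing about the genotype beyond those libraries. In footprints per RNA, 0.292% of 14368 genes were called and 0 of 921 members, with 0 members (1.61% of all genes) at an unadjusted p under 0.05 in DESeq2 and 4 members in edgeR, which also called 0. The 9 members outside these tests had counts only among the footprints of wild-type replicate 3. Among members that averaged 10 or more counts in the assay or assays compared, DESeq2 and edgeR called 0 in each of the 3 contrasts. In DESeq2 with replicate number in the model, 0 of these members had an unadjusted p under 0.05. Without replicate number in the model some did, among them CR46268 in footprints (0.0127 by DESeq2) and 3 members in RNA given below.

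Among the 165 members with a mean of at least 10 RNA counts, the median DESeq2 log2 RNA change was -0.05 (SD 0.56), with 70 above 0 and 95 below, against a median of 0.00 over all 10322 genes past that minimum. For 26 of the 165 (15.8%), all Polr3D EY/+ libraries were lower than both wild-type libraries, where 6.86% of all genes were, and for 12 (7.27%) all were higher, where 5.57% of all genes were. With 3 and 2 libraries, such a separation has a two-sided exact permutation p of 0.2 for a gene. The shares were not tested against each other, and the genes compared were not matched for RNA level. CR43857 (FBgn0264439; 2L, 7423820 to 7425932, plus strand), the host of mir-275, which is needed for egg production in mosquitoes, had 7.86, 7.52 and 6.49 CPM in Polr3D EY/+ and 3.88 and 4.29 CPM in wild-type flies, a log2 change of 0.93 (SE 0.70, adjusted p = 1.0 by DESeq2). CR46482 (FBgn0287613; 3L, 27821333 to 27881412, minus strand), in an intron of eIF4B, had 17.6, 21.5 and 20.9 CPM in Polr3D EY/+ and 30.5 and 25.3 CPM in wild-type flies, a log2 change of -0.54 (SE 0.35). Neither pair of genotypes overlapped, and neither gene passed the test.

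alphagamma-element:CR32865 (FBgn0052865; 3R, 12475336 to 12478267, minus strand), a heat shock transcript from the Hsp70 region, had 6, 10 and 3 RNA counts in Polr3D EY/+ and 26 and 21 in wild-type flies, a DESeq2 log2 change of -1.83 (SE 1.06, adjusted p = 1.0). CR34335 was at -0.75 (SE 0.67), with 165, 225 and 140 RNA counts in Polr3D EY/+ and 371 and 168 in wild-type flies. It was at -0.0081 when RNA-Seq of wild-type replicate 1 was dropped and at -1.37 when that of wild-type replicate 2 was dropped. Of the 165, these 4 genes had the smallest unadjusted p-values in the main fit. Without replicate number in the model, unadjusted DESeq2 p was 0.00559 for alphagamma-element:CR32865, 0.00734 for CR43857, 0.0182 for CR46482 and 0.297 for CR34335. edgeR gave 0.0262 to 0.0393 for the first 3 and 0.208 to 0.224 for CR34335. None of the 4 was called in those fits, and the share of all genes under 0.05 there was not computed.

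**Figure D5:**
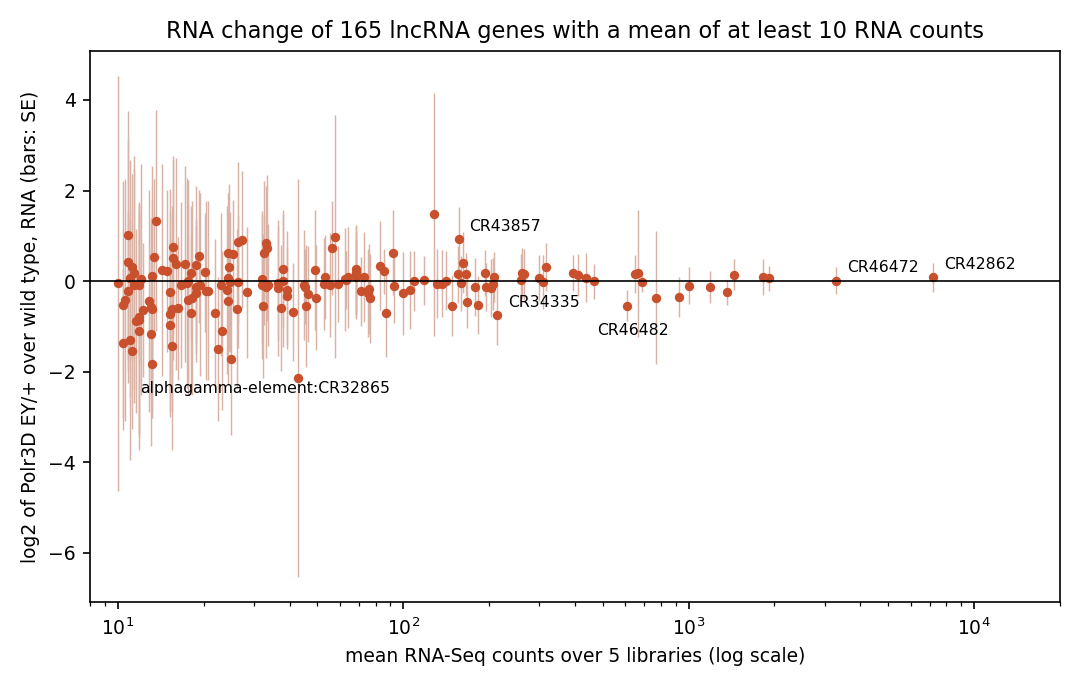
DESeq2 log2 RNA change of Polr3D EY/+ over wild type (bars, 1 SE) against the mean RNA counts (log scale) for 165 lncRNA genes with a mean of at least 10 RNA counts. The points centre near 0 (median -0.05), the bars are mostly widest at low counts, and CR42862 and CR46472 lie close to 0.

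In footprints, 14 members had a mean of at least 10, and their DESeq2 log2 changes ran from -1.60 to 2.73. The smallest p-value belonged to CR42862, with a log2 footprint change of 0.66 (SE 0.37, adjusted p = 1.0). It turned to -0.04 without wild-type replicate 1, and without wild-type replicate 2 it reached 1.82 and passed the test (DESeq2 adjusted p = 0.0681). CR46268 (FBgn0278598; 2L, 22538230 to 22548452, plus strand) had the highest change, 2.73 (SE 1.74), on 0, 46 and 4 footprints in Polr3D EY/+ and 2, 0 and 1 in wild-type libraries. The 46 footprints of Polr3D EY/+ replicate 2 set this value, and 55.5% of the exonic bases of CR46268 overlapped CG17490 on the same strand. flam was at 0.67 (SE 0.64) and CR43604 at -0.83 (SE 0.79). Single libraries or replicates moved these values widely: flam was at 0.051 without Polr3D EY/+ replicate 1 and at 1.23 without Polr3D EY/+ replicate 2, and CR43604 was at -0.11 without wild-type replicate 2. CR46268 was at 0.53 without Polr3D EY/+ replicate 2 and at 5.73 without wild-type replicate 1.

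For footprints per RNA, the 7 members averaging 10 or more counts in both RNA-Seq and Ribo-Seq had a median log2 change of 0.45, against -0.03 over 7703 genes. CR42862 was at 0.58 (SE 0.47), CR46268 at 2.56 (SE 2.15), CR33942 at 0.72 (SE 0.93) and CR45184 at 0.43 (SE 0.72), each with a DESeq2 adjusted p of 1.0. Without wild-type replicate 2, CR42862 reached 1.95 and passed the test (adjusted p = 0.0808), and without wild-type replicate 1 it turned to -0.37. CR45184 turned to -0.35 without Polr3D EY/+ replicate 3. With single libraries or replicates left out, CR46268 ran from 0.89 to 5.46 and CR33942 from 0.14 to 1.57, with no change of direction. The 95% interval of CR42862 ran from -0.34 to 1.499, and that of CR45018 from -0.78 to 0.56 around -0.11.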

How the data were processed

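Whole female flies were measured by Ribo-Seq and RNA-Seq. The authors digested lysates with RNase I for Ribo-Seq, trimmed the reads with Cutadapt and quantified them with Salmon against a BDGP6.32 transcript index that included noncoding RNAs, and deposited estimated counts per transcript as whole numbers. No column was left unused (0). Of 28367 features, 28345 matched the annotation and 22 did not. Transcripts were summed per gene, and size factors were the protein-coding totals of each library. As in the study, wild-type replicate 3 was left out of the fits, and its RNA-Seq library was not analysed here. DESeq2 1.42.0 (R 4.3.3) fitted replicate, genotype, assay and the interaction of genotype with assay over 10 libraries, with Benjamini-Hochberg adjustment over all genes and calls at an adjusted p under 0.1. edgeR 4.0.16 was the other tool. Scripts were tested on simulated data.

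Footprints per RNA was taken where the mean was at least 50 RNA counts, with exact Poisson intervals of 95% that cover counting error only, and with a pseudocount of 0.5 for log2 values by replicate. A count of 0 was bounded with 3 counts. In single Ribo-Seq libraries, 3 counts correspond to 0.940 to 2.66 CPM, and in RNA-Seq libraries to 0.104 to 0.123 CPM. The genes named were those known by name, the 10 with the highest RNA level, the 8 with the highest footprint level, the 8 with the most footprints per RNA (at least 10 footprints summed over the libraries of the fit), the 8 with the fewest (at least 30 footprints per library expected at the protein-coding median), and for each contrast the 4 smallest p-values among members with a mean of at least 10 counts. The called members, miRNA hosts and other members with footprints but little RNA were named beside them. Genes named Uhg, which host snoRNAs, do not carry the lncRNA: prefix and were not members. Members and lists were chosen with earlier results of these data known. Replicate numbers did not pair the samples: deviations of same-numbered RNA-Seq samples between genotypes correlated at -0.41 and -0.64, and those of Ribo-Seq samples at 0.05 and -0.16. Across numbers, RNA-Seq of Polr3D EY/+ replicate 2 correlated with wild-type replicate 1 at 0.64. Polr3D EY/+ replicates 1 and 3 correlated with wild-type replicate 2 at 0.41 and 0.44. RNA-Seq libraries thus shared deviations across genotypes under other numbers, and the cause was not tested. Deviations of same-numbered Ribo-Seq and RNA-Seq samples correlated at -0.11, -0.04 and -0.09 in Polr3D EY/+ replicates 1 to 3. In wild-type replicates 1 and 2 they correlated at -0.02 each. The alternatives changed the tool, the size factors, the filters, the libraries, the replicate block, the pseudocount and the minimum, and used single transcripts.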

Additional observations from a re-analysis of the deposited data

How the results depend on the processing

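Calls among lncRNA genes depended on the processing, and the main counts were 2 in RNA, 2 in footprints and 0 in footprints per RNA. With all 11 libraries there was 1 RNA call, which was neither CR43239 nor CR9284 (adjusted p = 1.0 each by DESeq2), and 3 footprint calls, 1 of them lower, which included CR44496 and CR44711. With edgeR (TMM or protein-coding library sizes), with genes averaging 10 or more counts in both assays, with one assay alone, and with no replicate block there were 0 RNA calls and 0 footprint calls. In edgeR 3 to 7 members had an unadjusted p under 0.05 in RNA and 5 to 6 in footprints. Single transcripts gave 6, 4 and 1 calls. Leaving out a replicate or library gave 0 to 10 RNA calls (10 when footprints of Polr3D EY/+ replicate 1 were dropped), 0 to 3 footprint calls and 0 to 1 in footprints per RNA (1 without wild-type replicate 2). With no replicate block and in some of the fits without a replicate, DESeq2 gave the called genes CR43239, CR9284, CR44496 and CR44711 no adjusted p, so those fits neither keep nor lose their calls. With edgeR and with the minimum of 10 counts in both assays, these called genes were filtered out before the test. The 0 calls of those settings therefore say nothing about them. For the other losses the cause was not tested. The replicate numbers did not pair the samples, and with no replicate block DESeq2 called 40, 59 and 5 genes of all kinds in RNA, footprints and footprints per RNA, against 137, 50 and 42 with it. With all 11 libraries, 52 genes of all kinds were called in RNA and 80 in footprints. Among single transcripts of all kinds, 511 were called in RNA and 821 in footprints. The fit with 10 RNA calls among members called 216 genes of all kinds in RNA.

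The Polr3D RNA change kept its direction but not its call with edgeR (-0.91 for both library sizes, adjusted p = 0.455 and 0.545) and in RNA-Seq alone (-0.94, adjusted p = 1.0 by DESeq2). It kept its DESeq2 call with all 11 libraries (-0.89, adjusted p = 0.0257) and with no replicate block (-0.93, adjusted p = 6.41e-06). The Polr3D footprint change passed the DESeq2 test with all 11 libraries (-1.13, adjusted p = 0.0324) and with no replicate block (-1.14, adjusted p = 0.0249). Leaving out whole replicates or single libraries gave -1.04 to -0.74 in RNA and -1.54 to -1.03 in footprints. The RNA call was lost without Polr3D EY/+ replicate 1 (-0.95), 2 (-0.86) or 3 (-0.93) and without wild-type replicate 1 (-0.91) or 2 (-0.89), and without the RNA-Seq library alone of the same replicates (-1.04, -0.74, -0.93, -0.98 and -0.84).

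The log2 gap between lncRNA and protein-coding medians was -3.35 in Polr3D EY/+ and -3.84 in wild-type flies with a pseudocount of 0.1, and -1.20 and -1.19 with a pseudocount of 2. With a minimum of 10 RNA counts it was -1.18 and -1.09, with 200 it was -3.83 and -3.30, and with none it turned to 2.81 and 2.97. Leaving out replicates gave -2.69 to -2.21 and -2.89 to -2.17. The log2 change of summed lncRNA levels ran from -0.10 to 0.10 in RNA and from 0.08 to 1.63 in footprints. The footprint change of CR42862 ran from -0.11 to 1.93 over single libraries left out and from -0.040 (without wild-type replicate 1) to 1.82 (without wild-type replicate 2) over whole replicates. Its footprints per RNA ran from -0.37 to 1.95, with -0.22 when footprints of wild-type replicate 1 were dropped. Footprints per RNA of CR45184 ran from -0.35 to 1.33, with 1.09 without wild-type replicate 2, -0.35 and -0.34 without the RNA-Seq or Ribo-Seq library of Polr3D EY/+ replicate 3, and -0.15 when footprints of wild-type replicate 1 were dropped. For the summed levels, leaving out replicates, leaving out the 4 genes with most footprints and adding wild-type replicate 3 were chosen after seeing the data.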
